A study of Homo sapiens with 13 samples.

Results

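The genes described here are 10 that carry out base excision repair of uracil in DNA, taken by symbol from a deposited table of 60591 genes, and all 10 had counts in every library and passed the filter on low counts. They are the uracil DNA glycosylases UNG, TDG, SMUG1 and MBD4, the endonuclease APEX1, the polymerase POLB, the scaffold XRCC1, the ligase LIG1, the break sensor PARP1 and the flap endonuclease FEN1. The cells are labelled TE11, a line from a human squamous carcinoma of the esophagus, and were kept for 48 h with 10 µM chloroquine plus 25 µM 5-fluorouracil (combination, n = 3), with 25 µM 5-fluorouracil alone (5-FU, n = 3), with 10 µM chloroquine alone (n = 3) or with 0.1% DMSO (vehicle, n = 4). Messenger RNA levels were read by sequencing of total RNA, and the study asks, by its title, how chloroquine affects the action of 5-FU, with p53 signalling named as the route. Whether replicates came from separate cultures is unstated, so each p-value reflects variation among these libraries, which may be technical. All cells were grown in DMEM with 10% serum. Whether the treated cells also had DMSO is unstated, so any difference in solvent cannot be told apart from the drugs.

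Uracil enters DNA when cytosine is deaminated or when a polymerase uses dUTP in place of dTTP. 5-FU inhibits thymidylate synthase, which shifts that balance, and fluorouracil itself can also be built into DNA. A glycosylase cuts the base from its sugar, APEX1 nicks the backbone at the empty site, POLB fills the gap with XRCC1 as scaffold, and a ligase seals the nick. In the long-patch branch FEN1 removes a displaced flap and LIG1, also the ligase of lagging-strand replication, joins the ends. PARP1 binds the broken intermediate and recruits repair factors. Chloroquine, an antimalarial drug, raises lysosomal pH and thereby inhibits autophagy.

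RefSeq promoter windows (GRCh38.p14) were matched by symbol for 8 of the 10 genes. In the 250 bases before the annotated start, 5 of these 8 genes held an E2F-type motif on either strand, spelled TTCCCGC, alternatively spelled with other inner letters as TTGGCGC, or in a further spelling as TTCGCGC. Such a motif was present in 9.3% of 35116 promoter windows. FEN1, MBD4 and APEX1 held none. The share counts windows whereas the members are counted as genes, so the figures are not like for like. E2F factors drive many genes of S phase, and the matches are shown because several of these genes serve both replication and repair. UNG has a pair of annotated starts, and the gene count does not separate their transcripts. The E2F-type letters are in capitals, 5′ to 3′ on the strand of the gene.
UNG, first start, chr12:109097578-109097606, + strand: gcgcgggccgcTTGGCGCcaattgctgac
UNG, second start, chr12:109098013-109098041, + strand: cggggcccatgGCGCCAAtccgcgcgccg
TDG, chr12:103965738-103965766, + strand: gcggagctgggGCGCCAAcgagaaggggg
XRCC1, chr19:43575641-43575669, - strand: acgcagcgctcTTCCCGCtctggagaggc
LIG1, chr19:48170440-48170468, - strand: cttcaccccttTTCCCGCcctcctcccat
PARP1, chr1:226408094-226408122, - strand: ttccgtgggcgTTCCCGCggccaggcatc
The letters TTCCCGC stand in the windows of XRCC1, LIG1 and PARP1. CCAAT boxes (CCAAT) were present in 5 of the 8 genes and E boxes (CACGTG) in 4, on either strand, against 32.0% and 6.3% of all windows. A match describes letters in a window and is not evidence of binding.

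The 13 libraries held 17834539 to 23679833 counts, and the 10 genes had 509 to 50821 counts per library. Markers went against the squamous label: of 10 squamous epithelium markers, 8 or 9 had at most 10 counts in every library of a group, KRT4 had 0 counts throughout and TP63 at most 3. Among general epithelial markers KRT18 had 747 to 1361 counts and EPCAM 27 to 74. Combination 2, 5-FU 2, chloroquine 1 and 2 and vehicle 4 held 153 to 741 counts of COL1A2, a collagen of fibroblasts, whereas the remaining 8 libraries held 1 to 7. Summed markers of fibroblasts reached 13.8 to 31.7 CPM (counts scaled to a common library size) in the combination, 27.1 to 44.8 with 5-FU, 12.6 to 95.0 with chloroquine and 10.6 to 123 in vehicle, where COL1A1 and COL3A1 had counts in every library while DCN and LUM were at 0 in some. Results that change without those 5 libraries are given where they stand. In such bulk RNA, fewer cells of a type and less RNA per cell cannot be told apart.

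**Figure D1:**
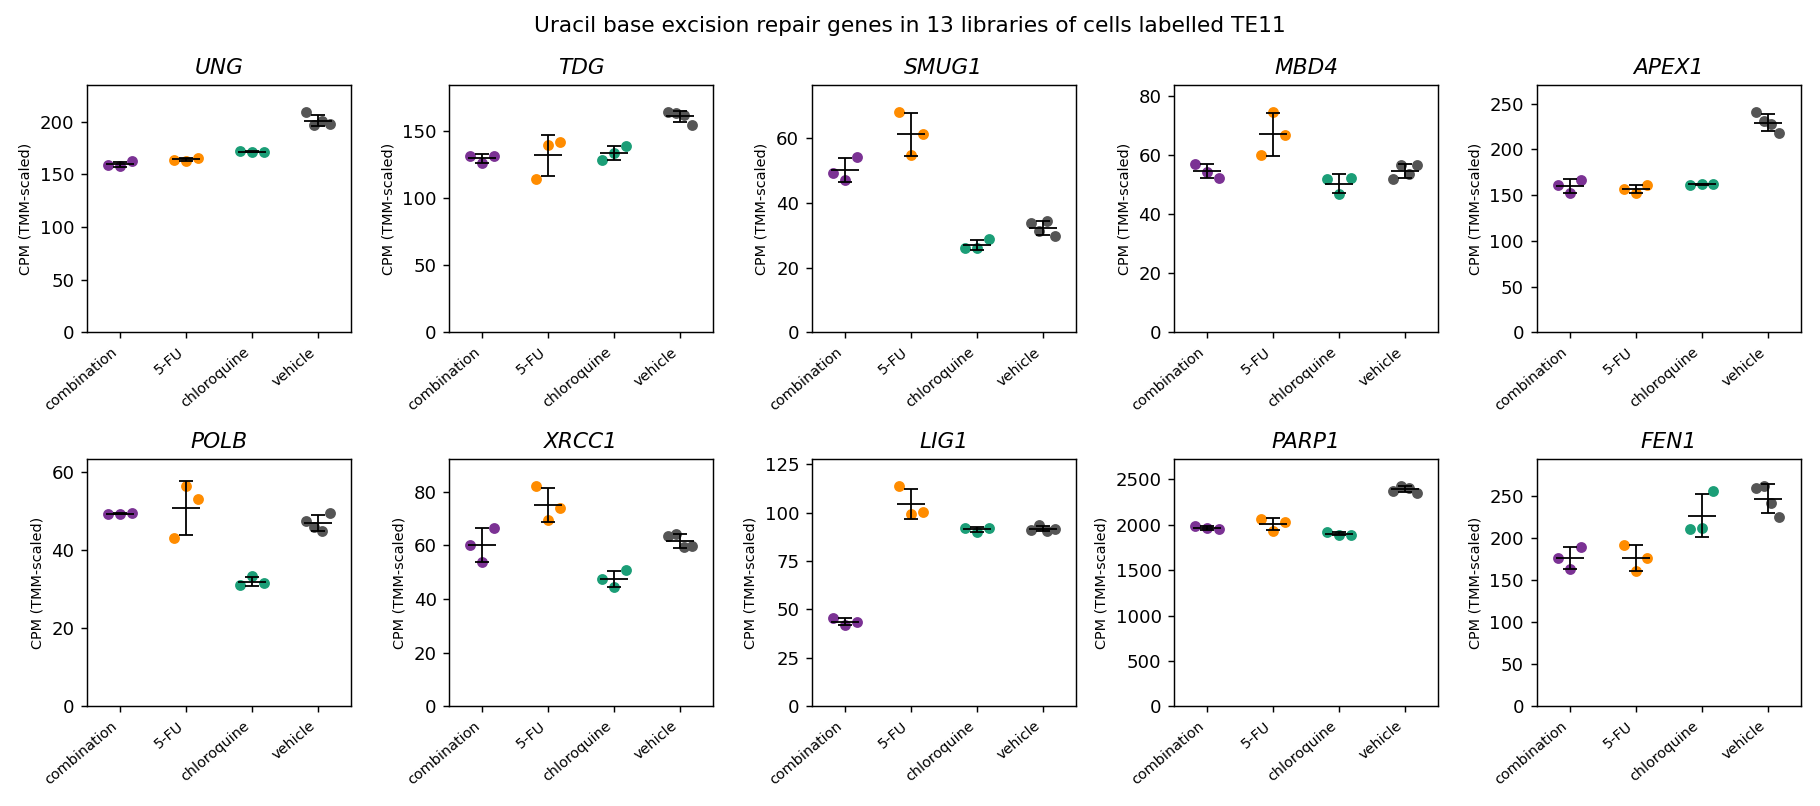
Levels of the 10 genes in every library, in CPM scaled by TMM (y axis, starting at 0), with the mean and SD of each treatment group (n = 3, 3, 3 and 4). LIG1 is lowest in the combination, at 42.1 to 45.4 CPM, SMUG1 is highest with 5-FU, and UNG, TDG, APEX1 and PARP1 sit below vehicle in all treated libraries.

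All 10 genes changed in at least 1 of the 3 comparisons against vehicle, where 79.5% of all tested genes did. UNG, TDG, APEX1 and PARP1 fell in all 3, as did 8.71% of all tested genes, and the 3 comparisons use the same vehicle libraries. In the combination 1 of the 10 rose, 6 fell and 3 did not pass, where 55.4% of the 19514 genes tested changed in either direction, 28.1% upward and 27.2% downward. With 5-FU 4 rose, 5 fell and 1 did not pass, where 60.3% of all genes changed, 30.8% upward and 29.5% downward. With chloroquine 0 rose, 7 fell and 3 did not pass, where 39.4% of all genes changed, 20.3% upward and 19.1% downward. Libraries did not overlap with vehicle for 7 of the 10 genes in the combination, 9 with 5-FU and 7 with chloroquine, where 58.8%, 58.1% and 47.8% of all genes did not. The shares of genes that changed are so high across the table that the number of called members is not by itself a result about this pathway. The median log2 fold change of the 10 was -0.30 in the combination, -0.068 with 5-FU and -0.26 with chloroquine, beside medians over all tested genes of 0.0057, 0.010 and 0.023. A change was called where edgeR's quasi-likelihood test gave an adjusted p under 0.05 (Benjamini-Hochberg, all tested genes). A value after ± is an SE for log2 fold changes and an SD for CPM. The comparisons against vehicle share its 4 libraries. Scaling by library size alone gave 7422 genes higher and 3659 lower in the combination (5489 and 5312 with TMM), 8291 and 3669 with 5-FU (6003 and 5756), and 5435 and 2410 with chloroquine (3952 and 3730). Under it the falls of UNG in the combination, with 5-FU and with chloroquine shrank to -0.18, -0.10 and -0.13, those of TDG in the combination and with chloroquine to -0.16 and -0.17, and that of PARP1 in the combination to -0.13, all still called. With 5-FU it gave -0.35 for APEX1, -0.30 for FEN1, 0.48 for MBD4, 0.48 for XRCC1 and 0.38 for LIG1, also called.

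**Figure D2:**
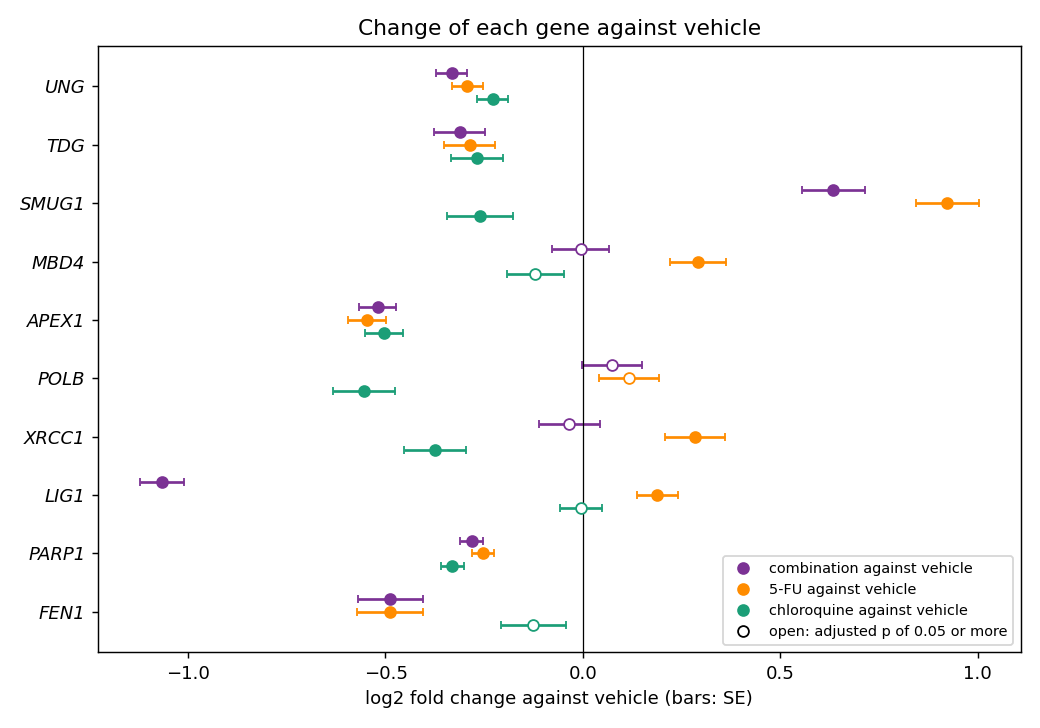
Log2 fold change of each gene against vehicle (x axis, bars are SE) in the combination, with 5-FU and with chloroquine, with open points where the adjusted p was 0.05 or more. APEX1 shows nearly the same fall under all 3 treatments, at -0.52, -0.55 and -0.50, whereas LIG1 is at -1.07, 0.19 and -0.0053.

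The 4 glycosylases did not move together. UNG, the main enzyme that removes uracil near replication forks, had 159, 158 and 162 CPM in the combination, 163, 163 and 166 with 5-FU and 172, 171 and 172 with chloroquine. Vehicle libraries had 209, 197, 200.4 and 198 CPM, all above all 9 treated libraries. UNG fell by 0.33 ± 0.0391 on the log2 scale in the combination (edgeR adjusted p = 5.43e-06), by 0.29 ± 0.0390 with 5-FU (adjusted p = 1.47e-05) and by 0.23 ± 0.0390 with chloroquine (adjusted p = 0.000381). Its coefficient of variation was the lowest of the 10 genes with 5-FU (0.966%) and with chloroquine (0.403%). In the combination against chloroquine UNG was called at -0.10 (edgeR adjusted p = 0.0498), a call that 20 of 23 alternatives lost. Among them were the replicate block (-0.10, edgeR adjusted p = 0.0999) and the 8 libraries with little COL1A2 (-0.0998), where chloroquine 3 is the only chloroquine library. The call was also lost on leaving out vehicle 2, 3 or 4, any chloroquine library, 5-FU 2 or 3, or any combination library (-0.12 to -0.085).

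TDG, which removes thymine and uracil opposite guanine, had 131, 126 and 131 CPM in the combination, 114, 139 and 141 with 5-FU and 128, 134 and 138 with chloroquine, against 164, 163, 162 and 155 CPM in vehicle. Every treated library was below every vehicle library, at log2 values of -0.31 ± 0.0653 in the combination, -0.29 ± 0.0653 with 5-FU and -0.27 ± 0.0654 with chloroquine (edgeR adjusted p = 0.000948, 0.00156 and 0.00478). The fall with 5-FU lost its call when libraries were scaled by size only (-0.094, edgeR adjusted p = 0.225), and that with chloroquine did so in the 8 libraries with little COL1A2 (-0.24, edgeR adjusted p = 0.0976), where chloroquine has 1 library. The processed pseudogene TDGP1 had 311 to 443 counts per library beside 2361 to 3543 for TDG, so reads could have been split between the copies. The genes with the pattern most like UNG over the 3 treatments were TOMM40L, FAM124A and RBMS1P1, a pseudogene, with root mean square differences of 0.0188, 0.0209 and 0.0213 on the log2 scale. For TDG they were WBP11, UQCRC1 and FAM124A (0.0185, 0.0187 and 0.0191), and between UNG and TDG the difference was 0.0265.

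SMUG1, a glycosylase that also removes hydroxymethyluracil, went the other way. It had 49.2, 46.8 and 53.9 CPM in the combination and 67.7, 54.5 and 61.0 with 5-FU, against 33.6, 31.2, 34.2 and 29.7 in vehicle. Chloroquine libraries had 26.1, 25.9 and 28.8 CPM, below all vehicle libraries, while both groups with 5-FU lay above them without overlap. SMUG1 rose 1.90-fold with 5-FU (log2 0.92 ± 0.0791, edgeR adjusted p = 1.93e-07) and 1.55-fold in the combination (log2 0.63 ± 0.0798, edgeR adjusted p = 1.04e-05). The rise with 5-FU passed in all 23 alternatives, at 0.84 to 1.12. The fall with chloroquine, -0.26 ± 0.0841 (edgeR adjusted p = 0.0236), lost its call without chloroquine 1 or 2 or vehicle 1 or 3 (-0.24 to -0.23), with library size only (-0.16) and in the 8 libraries with little COL1A2 (-0.20).

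MBD4, a glycosylase for mismatches at methylated CpG sites, had 57.0, 54.2 and 52.3 CPM in the combination, 59.8, 74.4 and 66.7 with 5-FU and 52.0, 46.7 and 52.4 with chloroquine, against 52.0, 56.7, 53.5 and 56.6 CPM in vehicle. The 5-FU libraries alone stood above vehicle, at a log2 difference of 0.29 ± 0.0713 (edgeR adjusted p = 0.00259). The combination was at -0.0053 ± 0.0721 and chloroquine at -0.12 ± 0.0728, neither of which passed. Exons of MBD4 share 144 bases (4.29% of their length) with IFT122 on the opposite strand in GENCODE 29, and the strand setting of the counting is unknown here.

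APEX1, the main endonuclease at sites without a base, fell to almost the same level under every treatment. It had 162, 152 and 166 CPM in the combination, 157, 152 and 162 with 5-FU and 161, 162 and 162 with chloroquine, against 240.4, 231, 228 and 217 CPM in vehicle. Means of 160.0 ± 7.39, 157 ± 4.69 and 162 ± 0.758 CPM in the treated groups stood below 229 ± 9.48 CPM in vehicle. The log2 fold changes were -0.52 ± 0.0477, -0.55 ± 0.0478 and -0.50 ± 0.0478 (edgeR adjusted p = 4.68e-07, 2.33e-07 and 2.80e-06). The combination did not differ detectably from 5-FU (0.027 ± 0.0506) or from chloroquine (-0.016 ± 0.0507).

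POLB, the gap-filling polymerase of short-patch repair, fell with chloroquine alone. It had 49.3, 49.3 and 49.6 CPM in the combination and 43.1, 56.5 and 53.1 with 5-FU, against 47.5, 45.9, 44.8 and 49.6 CPM in vehicle. With chloroquine it had 31.0, 33.3 and 31.5 CPM, below all other libraries of the study, which against vehicle is -0.55 ± 0.0789 on the log2 scale (edgeR adjusted p = 8.25e-05). Adding 5-FU to chloroquine set it 1.54-fold higher than chloroquine alone (log2 0.63 ± 0.0829, edgeR adjusted p = 2.20e-05). 5-FU alone did not pass (0.12 ± 0.0758, edgeR adjusted p = 0.199), but did without 5-FU 1, the lowest of its group (0.22, edgeR adjusted p = 0.00226), with a filter at 10 CPM (0.22) and without TMM scaling (0.31). In the combination POLB was at 0.073 ± 0.0759 and passed without TMM scaling (0.22, edgeR adjusted p = 0.0269). Without 5-FU 1 POLB was also called lower in the combination than with 5-FU (-0.15, edgeR adjusted p = 0.0410).

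XRCC1, the scaffold that holds POLB and the ligase LIG3, had 60.2, 53.9 and 66.4 CPM in the combination, 82.0, 69.3 and 73.8 with 5-FU and 47.4, 44.6 and 50.6 with chloroquine. Vehicle libraries had 63.3, 64.1, 59.4 and 59.6 CPM, between the 5-FU and the chloroquine libraries without overlap. XRCC1 rose by 0.28 ± 0.0757 on the log2 scale with 5-FU (edgeR adjusted p = 0.00472), fell by 0.38 ± 0.0781 with chloroquine (edgeR adjusted p = 0.00166), and was at -0.034 ± 0.0766 in the combination. PARP1, the most abundant transcript of the set, had 1987, 1961 and 1949 CPM in the combination, 2060.1, 1929 and 2026 with 5-FU and 1919.6, 1892 and 1889 with chloroquine, against 2370.1, 2425, 2408 and 2354 CPM in vehicle. All treated libraries lay below vehicle, at log2 fold changes of -0.28 ± 0.0288, -0.25 ± 0.0288 and -0.33 ± 0.0288 (edgeR adjusted p = 1.37e-06, 3.21e-06 and 1.41e-06). The PARP1 fall with 5-FU did not pass with library size only (-0.061, edgeR adjusted p = 0.0645), a scaling that moves the median of all genes by 0.19 in this comparison.

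FEN1, the flap endonuclease of long-patch repair and lagging-strand synthesis, had 176, 163 and 189 CPM in the combination and 192, 161 and 176 with 5-FU, against 259, 262, 242 and 225 CPM in vehicle. FEN1 fell in both groups with 5-FU, at -0.49 ± 0.0833 in each (edgeR adjusted p = 0.000176 in the combination and 0.000148 with 5-FU), with no overlap with vehicle, and the combination was at 0.00047 ± 0.0884 against 5-FU. Chloroquine libraries had 211, 212 and 256 CPM and overlapped vehicle (-0.13 ± 0.0825, edgeR adjusted p = 0.249). Chloroquine 3, at 256 CPM, is also the only chloroquine library with little COL1A2, and without it FEN1 was called lower with chloroquine (-0.24, edgeR adjusted p = 0.0394), while in the 8 libraries with little COL1A2 the value was 0.0066. The part of the other transcripts in this difference was not tested. FEN1 exons share 6.70% of their length with TMEM258 on the opposite strand and 1.98% with FADS2 on the same strand in GENCODE 29.

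LIG1, the ligase that seals long-patch repair and Okazaki fragments, had the largest change of the set. It had 45.4, 42.1 and 43.6 CPM in the combination, against 91.0, 93.5, 90.4 and 91.5 CPM in vehicle, a 0.477-fold level. With 5-FU alone it had 114, 99.3 and 100.3 CPM, above all vehicle libraries, and with chloroquine alone 91.9, 89.8 and 92.1 CPM, overlapping vehicle. The combination libraries were thus below every other library of the study, although neither drug alone lowered LIG1. The fall in the combination was -1.07 ± 0.0555 on the log2 scale (edgeR adjusted p = 1.81e-09), the rise with 5-FU 0.19 ± 0.0526 (edgeR adjusted p = 0.00634), and chloroquine was at -0.0053 ± 0.0531 (edgeR adjusted p = 0.951). Without 5-FU 1 the rise with 5-FU was 0.12 (edgeR adjusted p = 0.0282). Against 5-FU the combination was at -1.26 ± 0.0582, at percentile 2.48 of all tested genes, and against chloroquine at -1.06 ± 0.0583. Higher with 5-FU and lower in the combination, each called against the same vehicle libraries, described 331 of 19514 genes (1.70%). The genes most like LIG1 over the 3 treatments, looked up after its values were seen, were CC2D1A, SEMA4G and ERMARD, with differences of 0.0776, 0.148 and 0.156 on the log2 scale.

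Adding chloroquine to 5-FU lowered 4 of the 10 genes and raised 0, where 38.5% of all tested genes were called, 20.2% higher and 18.3% lower. Libraries of the pair did not overlap for these 4 genes and UNG, 5 of the 10, against 46.6% of all genes. The genes called lower were LIG1, XRCC1 (-0.32 ± 0.0809), MBD4 (-0.30 ± 0.0761) and SMUG1 (-0.29 ± 0.0828; edgeR adjusted p = 7.34e-09, 0.00638, 0.00663 and 0.0129). They are the 4 genes that were higher with 5-FU than in vehicle, but both comparisons use the 5-FU libraries, so the match is not independent. MBD4 lost its call in the 8 libraries with little COL1A2 (-0.21, edgeR adjusted p = 0.0628), and SMUG1 without combination 2 (-0.25, adjusted p = 0.0626) or 5-FU 1 (-0.21, adjusted p = 0.0501). All 4 calls held with the replicate number as a block in 5-FU and the combination. Adding 5-FU to chloroquine raised SMUG1 (0.90 ± 0.0871), POLB and XRCC1 (0.34 ± 0.0826) and lowered LIG1, FEN1 (-0.36 ± 0.0883) and UNG, 6 of 10 called where 50.6% of all genes were, 24.8% higher and 25.7% lower. Libraries of the pair did not overlap for 7 of the 10, against 60.5% of all genes.

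The interaction asks whether 5-FU acted differently with chloroquine present. It was called for 5 of the 10 genes, 4 upward and 1 downward, where 39.9% of all tested genes were called, 20.6% upward and 19.3% downward. Scaling by library size alone moved that split from 4019 up and 3772 down to 2379 up and 5063 down, and set PARP1 at 0.16, still called. For LIG1 the interaction was -1.25 ± 0.0783 (edgeR adjusted p = 9.33e-08), at percentile 7.72 of all tested genes. 5-FU lowered LIG1 with chloroquine and raised it without. For APEX1 the interaction was 0.53 ± 0.0695, for POLB 0.51 ± 0.112 and for PARP1 0.30 ± 0.0419 (edgeR adjusted p = 4.82e-05, 0.00244 and 7.79e-05). Adding 5-FU to chloroquine gave -0.016 for APEX1 and 0.049 for PARP1, neither of them called, and with library size only PARP1 was called higher there (0.10, edgeR adjusted p = 0.00908). MBD4 (-0.18 ± 0.105) did not pass, and passed with library size only (-0.32), with a filter at 10 CPM (-0.27) and without 5-FU 1 (-0.24). UNG was called at 0.19 ± 0.0569 (edgeR adjusted p = 0.0164), a call lost with a filter at 10 CPM (0.0995), with no filter (0.21), with library size only (0.049) and in the 8 libraries with little COL1A2 (0.21). SMUG1 rose with 5-FU by 0.92 without and 0.90 with chloroquine, and its interaction was -0.028 ± 0.118. TDG (0.24 ± 0.0953) did not pass at an edgeR adjusted p of 0.0551, and passed in 8 of 22 alternatives.

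**Figure D3:**
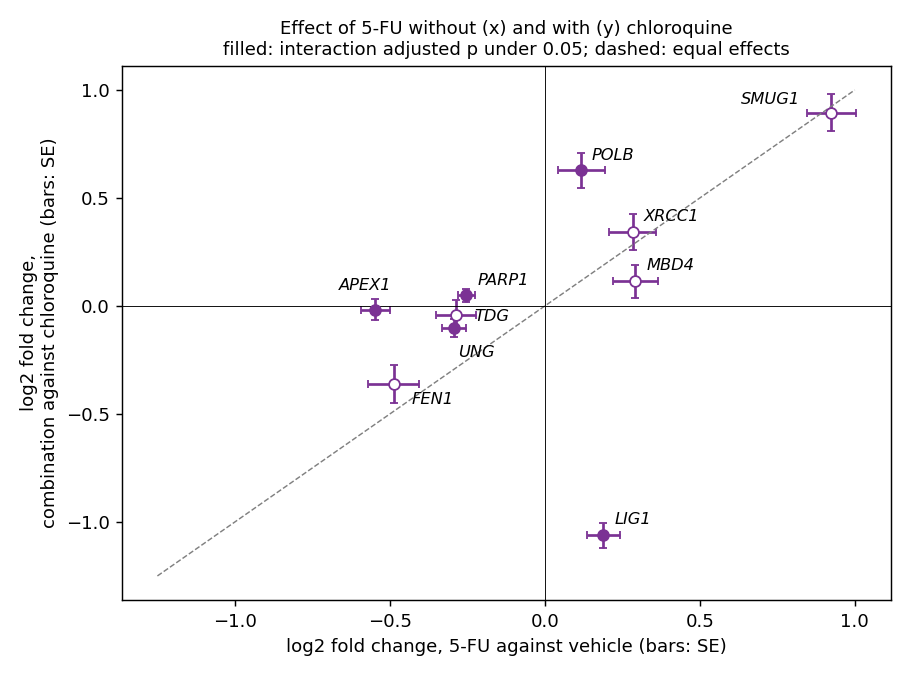
Log2 fold change of 5-FU without chloroquine (x axis, 5-FU against vehicle) and with it (y axis, combination against chloroquine) for the 10 genes, bars are SE, filled points have an interaction adjusted p under 0.05. SMUG1 and XRCC1 lie near the dashed line of equal effects, and LIG1 lies farthest from it, at 0.19 and -1.06.

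Levels per length were ordered by CPM per kilobase of merged exons of GENCODE 29, whose isoforms may not be those of these cells. In the combination PARP1 led at 274 ± 2.77, followed by APEX1 (84.8 ± 3.92), FEN1 (71.1 ± 5.18), UNG (62.2 ± 0.931) and TDG (26.4 ± 0.661). XRCC1 (17.4 ± 1.81), MBD4 (16.2 ± 0.704), POLB (12.0 ± 0.0333), SMUG1 (8.29 ± 0.603) and LIG1 (6.65 ± 0.247) came last. In vehicle the order was PARP1 at 333 ± 4.59, then APEX1 (122 ± 5.03), FEN1 (99.7 ± 6.84), UNG (78.3 ± 2.07), TDG (32.8 ± 0.854), XRCC1 (17.8 ± 0.709), MBD4 (16.3 ± 0.692), LIG1 (13.9 ± 0.203), POLB (11.4 ± 0.503) and SMUG1 (5.34 ± 0.347). No neighbours in the vehicle order overlapped between libraries, while XRCC1 and MBD4 did in the combination. LIG1 moved from eighth in vehicle to last in the combination.

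Among other genes of the pathway, the other DNA glycosylases, most of them for oxidised bases and MPG for alkylated ones, split. Of 7, 2 rose and 2 fell in the combination, 3 rose and 2 fell with 5-FU, and 1 rose and 3 fell with chloroquine. Over all tested genes 28.1% rose and 27.2% fell in the combination, 30.8% and 29.5% with 5-FU, and 20.3% and 19.1% with chloroquine. NEIL1 averaged 23.1 ± 0.523 CPM in the combination, 48.4 ± 4.58 with 5-FU and 36.5 ± 0.858 with chloroquine, against 19.9 ± 0.529 in vehicle. It rose with each drug alone (1.28 ± 0.0624 and 0.87 ± 0.0636) and by 0.21 ± 0.0654 with both, and its interaction was -1.94 ± 0.0918 (edgeR adjusted p = 5.98e-09). OGG1, which removes oxidised guanine, rose by 0.35 ± 0.0635 in the combination. NTHL1, which removes oxidised pyrimidines, fell under all 3 treatments (-0.82 ± 0.0950, -0.79 ± 0.0949 and -0.54 ± 0.0940).

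Genes of single-strand break repair and end processing also split, with 4 of 11 higher and 6 lower in the combination, 5 and 5 with 5-FU, and 1 and 4 with chloroquine. Of all tested genes 28.1% were higher and 27.2% lower in the combination, 30.8% and 29.5% with 5-FU, and 20.3% and 19.1% with chloroquine. LIG3, the ligase that partners XRCC1, averaged 24.2 ± 0.910 CPM in the combination, 34.1 ± 2.51 with 5-FU and 31.4 ± 1.94 with chloroquine, against 55.6 ± 0.686 CPM in vehicle. Its fall in the combination was -1.20 ± 0.0615 (edgeR adjusted p = 1.55e-09), so the mean levels of both LIG3 and LIG1 were lowest there. Unlike LIG1, LIG3 also fell with 5-FU (-0.71 ± 0.0596) and with chloroquine (-0.82 ± 0.0604), with an interaction of 0.33 ± 0.0887. HMGB1, a chromatin protein that also acts as a repair cofactor, fell under all 3 treatments, most with 5-FU (-1.01 ± 0.0955) and least in the combination (-0.46 ± 0.0937). APLF, a histone chaperone of break repair, had the highest value in the combination (0.72 ± 0.144). PARG, which removes poly(ADP-ribose), had the highest called value with chloroquine (0.15 ± 0.0558), where APLF (0.16 ± 0.150) did not pass. Against chloroquine the combination was highest for APTX (0.65 ± 0.0620) and lowest for TDP1 (-0.66 ± 0.0662), both enzymes that clean blocked ends.

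Of 19 factors of long-patch synthesis and replication, 4 rose and 11 fell in the combination, 4 rose and 10 fell with 5-FU, and 4 rose and 7 fell with chloroquine. Over all tested genes 28.1% rose and 27.2% fell in the combination, 30.8% and 29.5% with 5-FU, and 20.3% and 19.1% with chloroquine. POLE, the catalytic subunit of the leading-strand polymerase, averaged 197 ± 2.64 CPM in the combination, 351 ± 35.3 with 5-FU and 281 ± 13.1 with chloroquine, against 222 ± 6.71 in vehicle. Like LIG1 it rose with 5-FU (0.66 ± 0.0591) and fell in the combination (-0.17 ± 0.0601, edgeR adjusted p = 0.0281). WRN, a helicase with roles in repair, had the lowest value with 5-FU (-0.89 ± 0.0760) and POLD4, a small polymerase subunit, the highest (1.10 ± 0.149). With chloroquine RPA1, of the single-strand binding complex, had the lowest value (-0.37 ± 0.0414). RPA3 had the highest in the combination against 5-FU (0.39 ± 0.0807) and POLE3 the highest interaction (0.51 ± 0.0612). PCNA, the sliding clamp that holds FEN1 and LIG1, fell with 5-FU (-0.35 ± 0.0498) but was at -0.08 ± 0.0495 in the combination. Of 18 markers of S phase and proliferation, 15 fell and 1 rose in the combination, 11 fell and 2 rose with 5-FU, and 6 fell and 1 rose with chloroquine. In the same order 27.2%, 29.5% and 19.1% of all tested genes fell, and 28.1%, 30.8% and 20.3% rose. The median log2 fold changes of the markers were -0.30, -0.21 and -0.11. The part of the markers in the changes of UNG, FEN1, PARP1 and LIG1 was not tested. The helicase gene MCM7 was lowest in the combination (-0.66 ± 0.0551), GINS1 with 5-FU (-0.85 ± 0.0825) and MCM5 with chloroquine (-0.38 ± 0.0721). The highest were E2F1 in the combination (0.28 ± 0.0805), the licensing factor gene CDT1 with 5-FU (0.55 ± 0.105) and the proliferation marker MKI67 with chloroquine (0.38 ± 0.101). Against 5-FU the combination was highest for GINS1 (0.35 ± 0.0872) and lowest for the cyclin gene CCNE2 (-0.53 ± 0.107). Against chloroquine the called values ran between -0.54 ± 0.0600 for CDC45 and -0.16 ± 0.0633 for GINS3. The interaction was highest for GINS1 (0.70 ± 0.119) and lowest for MKI67 (-0.64 ± 0.148).

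**Figure D4:**
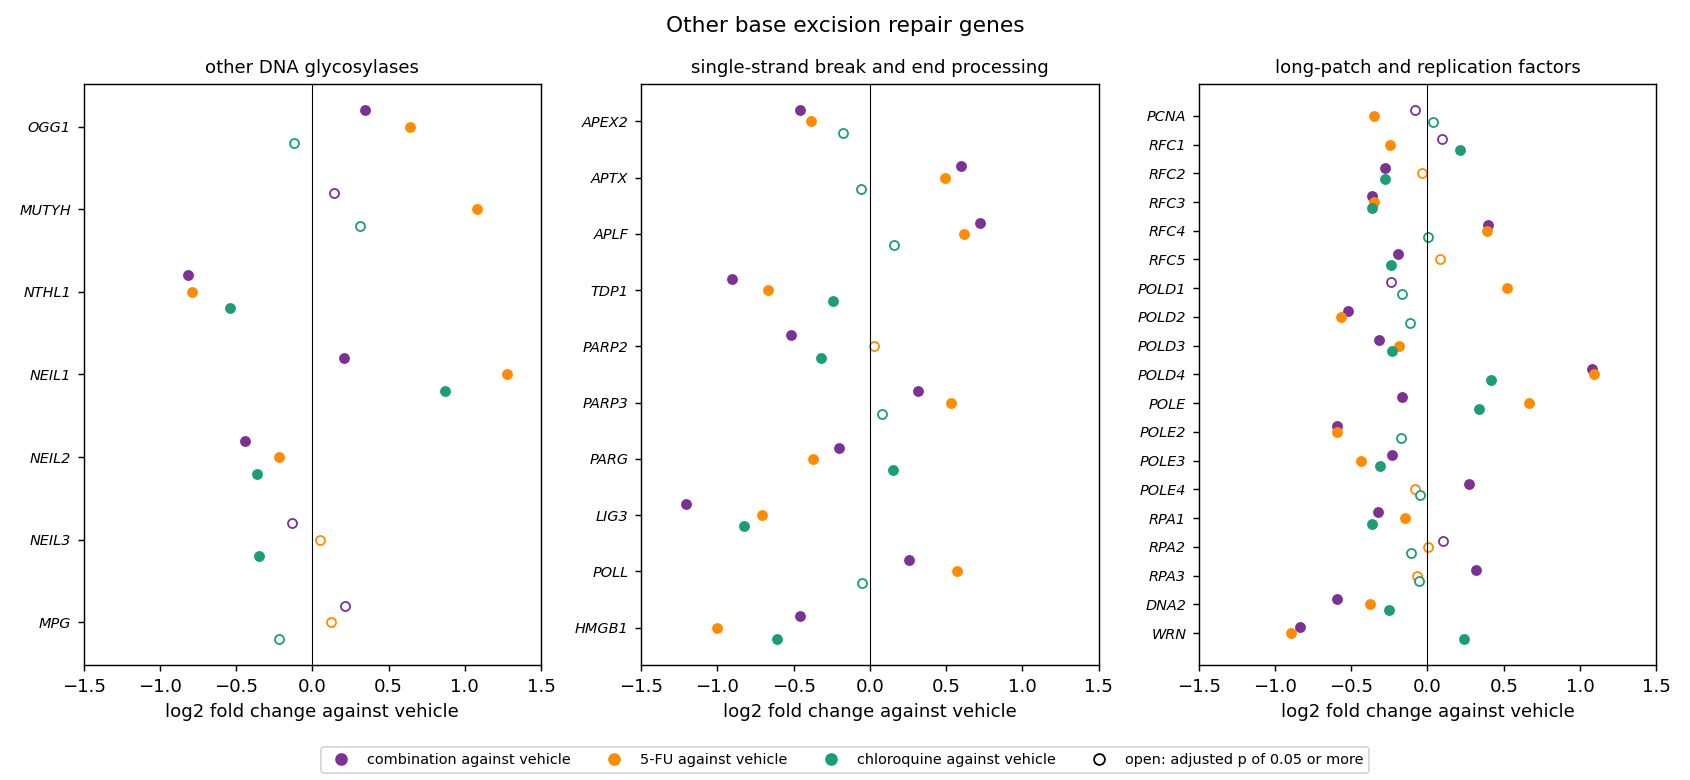
Log2 fold change against vehicle (x axis) of other base excision repair genes in the combination, with 5-FU and with chloroquine, with open points where the adjusted p was 0.05 or more. LIG3 is lowest in the combination at -1.20, and NEIL1 is highest with 5-FU at 1.28.

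Of 10 genes that set the dUTP and dTTP pools, 3 rose and 3 fell in the combination, 3 rose and 4 fell with 5-FU, and 0 rose and 3 fell with chloroquine. Over all tested genes 28.1% rose and 27.2% fell in the combination, 30.8% and 29.5% with 5-FU, and 20.3% and 19.1% with chloroquine. DUT, the dUTPase that keeps uracil out of DNA, averaged 133 ± 1.29 CPM in the combination, 106 ± 11.1 with 5-FU and 149 ± 3.12 with chloroquine, against 146 ± 8.79 CPM in vehicle, and fell with 5-FU (-0.47 ± 0.0662, edgeR adjusted p = 2.70e-05). TYMS, the target of 5-FU, rose by 0.20 ± 0.0510 in the combination and 0.28 ± 0.0509 with 5-FU. With chloroquine alone TYMS was called lower (-0.15 ± 0.0517, edgeR adjusted p = 0.0355). CDKN1A, the p53 target that encodes p21, rose by 2.59 ± 0.0685 in the combination, 2.19 ± 0.0684 with 5-FU and 1.15 ± 0.0695 with chloroquine.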

How the data were processed

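Raw counts for each gene in 13 libraries were deposited in a single table; libraries were strand-specific, built from total RNA, per the labels' protocols. Per the submitters' processing notes DESeq was used, with no version or role, and the build was GRCm38, a mouse build beside human symbols. Which aligner, counter, annotation and strand setting were used is not given in the sources. Genes passing filterByExpr (19514 of 60591, at least 99.84% of each library's counts) were scaled by TMM and fitted with 1 quasi-likelihood model in edgeR 4.0.16 (R 4.3.3), 1 mean per group over all libraries, for 6 comparisons. P-values were adjusted by Benjamini-Hochberg over all genes tested. On simulated data for 5-FU against vehicle, 88% of 100 genes changed 2-fold and 77% of 100 changed 1.5-fold were called among 18212 genes. Alternatives used DESeq2 1.42.0, limma-voom (limma 3.58.1), other scalings and filters, the groups compared alone, a replicate block, a term for libraries over 50 counts of COL1A2, the 8 other libraries alone, and each library left out. In a check of pairing, deviations from group means correlated at 0.341, 0.743 and 0.339 for replicates 1, 2 and 3 of 5-FU and the combination, over the limit of 0.1. No label states a shared source, and the reported fit used no pairing. 5-FU 2 and combination 2 are also the libraries of their groups with more COL1A2 (159 and 153 counts). The check therefore cannot tell pairing apart from those other transcripts. No other groups met the limit in all pairs. The members and gene lists were chosen with earlier results of these data known. Named genes were all 10 members, the called gene with the highest and lowest fold change of each list per comparison, PCNA, DUT, TYMS and CDKN1A, and the 3 genes most like UNG and TDG by the root mean square difference of their 3 log2 fold changes against vehicle, among 13223 genes whose log2 CPM averaged 1 or more. 1 gene of these lists is not reported here, though the counts over its list include it.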

Additional observations from a re-analysis of the deposited data

Results flagged for a closer look

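The effect of 5-FU differed with and without chloroquine for 5 genes by the interaction term of edgeR. LIG1 was at -1.25, with every combination library below every chloroquine library and every 5-FU library above every vehicle library. APEX1 was at 0.53 and PARP1 at 0.30, both of which fell with 5-FU alone and did not pass when 5-FU was added to chloroquine. With library size only, PARP1 did not pass with 5-FU alone (-0.061) and was called higher when 5-FU was added to chloroquine (0.10). POLB was at 0.51, which rose when 5-FU was added to chloroquine and did not pass with 5-FU alone. UNG was at 0.19, the smallest of the 5.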

How the results depend on the processing

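Counts of called members stayed within 1.5 times the reported ones in all alternatives: 7 to 8 in the combination against vehicle, 8 to 10 with 5-FU, 5 to 8 with chloroquine, 3 to 4 against 5-FU, 5 to 6 against chloroquine and 4 to 6 for the interaction. With the replicate block these were 7, 9, 7, 4, 5 and 6, and beyond UNG in the combination against chloroquine and TDG in the interaction (0.27, adjusted p = 0.0431) the block changed no call. Of 1380 values for single genes, 1271 kept direction and side of the threshold, 36 lost a call, 18 gained one and 55 changed sign, none of them called in the reported fit; the cause was not tested.

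The values that changed sign were small. With library size only (shift of the all-gene median 0.15 in the combination, 0.19 with 5-FU, 0.095 with chloroquine) they were 0.14 for MBD4 and 0.11 for XRCC1 in the combination, 0.090 for LIG1 with chloroquine, -0.017 for APEX1 and -0.043 for FEN1 against 5-FU, 0.0094 for TDG and 0.036 for APEX1 against chloroquine, and -0.083 for XRCC1 and -0.014 for FEN1 in the interaction. With a filter at 10 CPM they were 0.058 for MBD4, 0.029 for XRCC1, 0.047 for LIG1, -0.0098 for APEX1, -0.037 for FEN1 and -0.033 for XRCC1 in the same comparisons. With only the groups compared they were 0.0030 for MBD4, 0.0073 for LIG1 and -0.019 for FEN1, and with the replicate block 0.013 for MBD4, 0.0067 for SMUG1 (interaction) and, in 5-FU and the combination alone, -0.018 for FEN1. FEN1 against 5-FU was -0.0035 with RLE and -0.0036 with DESeq2. With a term for other transcripts LIG1 was 0.016 with chloroquine and XRCC1 -0.0057 in the interaction. In the 8 libraries with little COL1A2 they were 0.0074 for MBD4 and 0.015 for XRCC1 in the combination, 0.0032 for LIG1 and 0.0066 for FEN1 with chloroquine, 0.039 for TDG, 0.039 for POLB and -0.0085 for FEN1 against 5-FU, 0.0095 for APEX1 against chloroquine and -0.015 for FEN1 in the interaction. Leaving out each library gave -0.046 to 0.021 for MBD4 and -0.11 to 0.033 for XRCC1 in the combination, -0.028 to 0.0054 for LIG1 with chloroquine, -0.12 to 0.026 for TDG, -0.15 to 0.032 for POLB, -0.065 to 0.061 for FEN1 and -0.0014 to 0.062 for APEX1 against 5-FU, -0.046 to 0.029 for APEX1 against chloroquine, and -0.090 to 0.065 for SMUG1 and -0.018 to 0.14 for XRCC1 in the interaction.

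LIG1 passed in every alternative for the combination against vehicle (-1.10 to -0.92), against 5-FU (-1.30 to -1.19) and for the interaction (-1.39 to -1.17). The lowest count of a member in a library was 509, for SMUG1, so counting error weighs most on SMUG1 and POLB.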

Other observations

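DNA cytosine deaminases make uracil from cytosine in DNA, and those tested here are of the APOBEC3 family. Of 8 such genes, 4 passed the filter on low counts. All 4 were called higher in the combination and with 5-FU, where 28.1% and 30.8% of all tested genes rose. With chloroquine 0 rose and 1 fell, where 20.3% and 19.1% of all tested genes did. APOBEC3C averaged 95.3 ± 4.50 CPM in the combination, 91.1 ± 4.38 with 5-FU and 50.4 ± 2.51 with chloroquine, against 60.5 ± 1.82 CPM in vehicle, and rose by 0.66 ± 0.0543 in the combination and 0.59 ± 0.0544 with 5-FU (edgeR adjusted p = 1.71e-07 and 3.85e-07). APOBEC3C was the gene called lower with chloroquine (-0.26 ± 0.0564, edgeR adjusted p = 0.0019). APOBEC3H averaged 1.37 ± 0.270 CPM in the combination, 1.38 ± 0.313 with 5-FU, 0.113 ± 0.0675 with chloroquine and 0.0673 ± 0.0313 in vehicle. It passed the filter through the groups where it was high, so its call adds no support for a rise of the group. APOBEC3B (1.76 ± 0.174 and 1.31 ± 0.176) and APOBEC3F (1.00 ± 0.116 and 1.14 ± 0.116) rose in the combination and with 5-FU, and are named after their values were seen.

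RRM2, a ribonucleotide reductase subunit of S phase, averaged 181 ± 6.72 CPM in the combination, 233 ± 18.2 with 5-FU and 314 ± 11.9 with chloroquine, against 334 ± 3.69 CPM in vehicle. Its p53-induced paralog RRM2B averaged 134 ± 6.01, 94.2 ± 10.3 and 77.2 ± 1.57 CPM in the combination, with 5-FU and with chloroquine, against 69.3 ± 1.21 CPM in vehicle. In the combination RRM2 fell by 0.88 ± 0.0534 and RRM2B rose by 0.95 ± 0.0638 on the log2 scale. TK1, a thymidine salvage kinase of S phase, was lower in the combination than with 5-FU (-0.62 ± 0.112), with an interaction of -0.42 ± 0.153. With chloroquine the called genes of the dUTP and dTTP pools ran between -0.24 ± 0.0657 for DCTD, the dCMP deaminase, and -0.13 ± 0.0403 for RRM1, the large subunit of ribonucleotide reductase.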
